A study of Mus musculus with 10 samples.

Results

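The SLC25 family holds the mitochondrial carriers, small proteins that are mostly in the inner mitochondrial membrane. Most of them move nucleotides, phosphate, carboxylates, amino acids, cofactors or metals between the cytosol and the mitochondrial matrix. Members were taken as every gene of the deposited table whose mouse symbol begins with Slc25a, which gave 47 of 22053 genes. Expression had been measured by RNA-seq in kidney glomeruli, the filtering tufts of the kidney, in 10 mouse libraries. The groups were 5 libraries from mice labelled Col4a3 p.G799R, a missense change in the alpha 3 chain of type IV collagen, and 5 libraries from mice labelled Col4a3 wild-type. The sources used here do not state zygosity, age, sex, strain or how glomeruli were isolated. They do not say either that each library is a mouse of its own, and the p-values below therefore rest on a spread that could be technical. The comparison of mutant with wild type is the one that the design text states.

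A typical carrier is built from repeated membrane-spanning units around a single substrate site. Many import or export by exchange across a membrane that is otherwise closed to these solutes. Proximal tubule cells, which reabsorb most of the filtrate next to the glomerulus, are among the cells richest in mitochondria, while podocytes and endothelial cells of the tuft hold fewer. Some carriers are in nearly all cells, such as the ADP/ATP and phosphate carriers, and others belong to pathways of a few epithelia, such as ornithine and citrulline exchange.

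Values are FPKM, fragments scaled for transcript length and library total, and tests were made on log2(FPKM + 1) with limma across 13117 genes (mean of 0.5 FPKM or more over all libraries), where a gene is called at a Benjamini-Hochberg adjusted p under 0.05 over all of them. Differences are G799R minus wild type on that log2 scale, and folds are ratios of mean FPKM. The FPKM total of a library was 320720 to 340875, which gives no absolute depth. Col4a3 itself ranged from 193 to 226 FPKM in G799R and 123 to 155 FPKM in wild-type libraries, and since the variant is a missense change its level does not check the labels. The 30 podocyte markers, which check the labelled tissue, summed to 8322 to 10739 FPKM in G799R and 4985 to 5980 FPKM in wild-type libraries, and 29 were called higher. The 34 proximal tubule markers summed to 1428 to 3325 FPKM in G799R and 10322 to 18797 FPKM in wild-type libraries, with none at 0 throughout a group and 33 called lower. The 29 markers of distal tubule and collecting duct summed to 361 to 828 FPKM in G799R and 2196 to 3740 FPKM in wild-type libraries, with 28 called lower. Between the groups, these tubule markers went in the same direction as every fall described below. Whether they follow the carriers from library to library within a group was not tested. A score of the tubule markers did not overlap between the groups, so their part in the falls cannot be told apart from genotype. Markers of glomerular endothelium were called higher in 24 of 30 cases and lower in 1. Those of mesangium and smooth muscle were called higher in 15 of 23 tested and lower in 0. Over all tested genes 40.5% were called higher and 19.3% lower. With the podocyte, endothelial, and mesangial and smooth muscle markers set equal between libraries, none of the 3 rises described below was called. The part of these markers in the rises as a cause was not tested. In bulk tissue, fewer cells of a type and less RNA per cell cannot be told apart.

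Most measured carriers were lower in G799R glomeruli. Of the 40 members that passed the filter on low values, 23 were called lower and 3 higher, and 14 were not called. Over all tested genes 19.3% were called lower, 40.5% higher and 59.8% in either direction, against 57.5% and 7.5% of the carriers lower and higher. With a score of the tubule markers as a covariate in the same limma fit, 0 carriers and 0 of all 13117 genes (0.0%) were called. That score was 3.62 to 4.37 in G799R and 5.91 to 6.60 in wild-type libraries, and the median SE of a carrier was 0.42 with it and 0.12 without it. Because the score did not overlap between the groups, this fit cannot tell tubule content apart from genotype. At an unadjusted p under 0.05, 1 carrier (Slc25a46) was lower and 0 higher in that fit (over all genes, 366 and 354), and 15 of the 39 carriers given by name changed sign, Slc25a39 to 0.26 among them. The median difference without the score was −0.48 for the 40 carriers and 0.17 for all genes tested. The groups did not overlap for 22 carriers, all lower in G799R, where over all tested genes 15.7% were lower and 26.1% higher without overlap, 41.8% in all. Differences of at least 2-fold on the log2 scale were found in 9 carriers, all lower, which is 22.5% of them against 8.22% of all tested genes. The summed FPKM of all 47 members was 758 to 849.7 in G799R and 1244 to 1728 in wild-type libraries, which was 0.222% to 0.258% of all FPKM in G799R and 0.379% to 0.525% in wild type. Exons of 7 members overlap a protein-coding gene on the opposite strand, and those of Slc25a10, Slc25a23, Slc25a33 and Slc25a37 an antisense gene. Since counting by strand is not stated, reads of such a pair cannot be told apart.

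**Figure D1:**
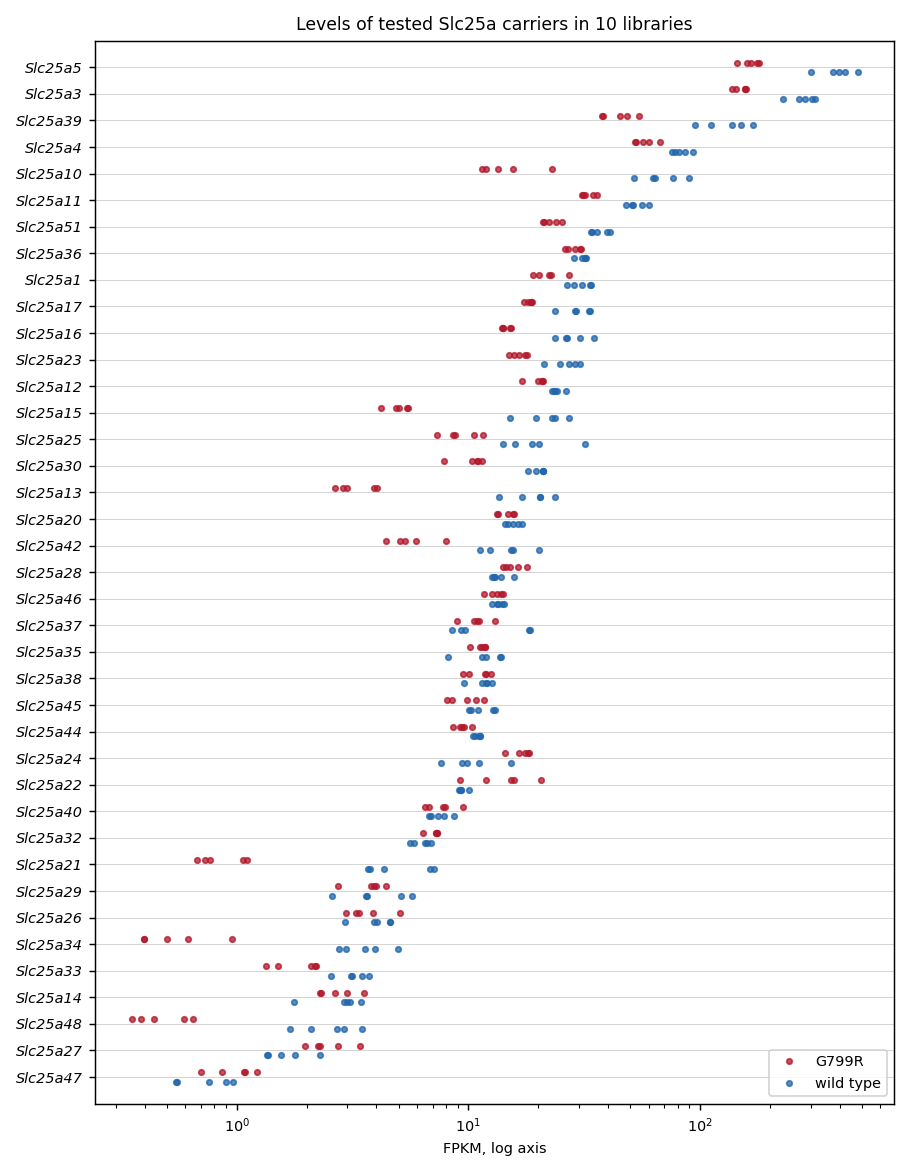
FPKM of 39 of the 40 tested carriers (log axis) in each of the 5 G799R libraries (red, upper points of a row) and 5 wild-type libraries (blue, lower points), ordered by the wild-type mean. The 4 most abundant carriers and the strongly lower ones, such as Slc25a13 and Slc25a34, show no overlap between groups, while carriers near the middle, such as Slc25a46 and Slc25a38, lie on top of each other.

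The ADP/ATP and phosphate carriers held 3 of the 4 highest mean levels in the family, and all 3 tested fell. Slc25a5 encodes the ADP/ATP carrier of proliferating and epithelial cells, Slc25a4 that of heart and muscle, and Slc25a3 the phosphate carrier that feeds ATP synthase. Slc25a5 stood at 166, 180.3, 159.7, 144 and 176 FPKM in G799R libraries 1 to 5, against 302, 399, 375, 481 and 422 FPKM in wild-type libraries 1 to 5. Slc25a3 stood at 157, 158, 137, 143 and 157 FPKM in G799R libraries 1 to 5, against 228, 282, 267, 315 and 305 FPKM in wild-type libraries 1 to 5. Slc25a4 stood at 56.7, 52.9, 52.5, 60.5 and 66.8 FPKM in G799R libraries 1 to 5, against 75.7, 77.6, 80.8, 93.5 and 85.7 FPKM in wild-type libraries 1 to 5. In all 3 genes the lowest wild-type library lay above the highest G799R library, and wild-type library 1 was the lowest of its group. Slc25a5, at chromosome X, 36795651 to 36798807 (GRCm38), was 2.397-fold lower (log2 difference −1.24 ± 0.12 SE, limma adjusted p = 8.2e-06), Slc25a3 was 1.86-fold lower (−0.88 ± 0.09, adjusted p = 1.7e-05) and Slc25a4 was 1.43-fold lower (−0.51 ± 0.08, adjusted p = 0.00038). Slc25a5 has processed pseudogenes of nearly identical sequence, and reads shared with them make its level uncertain. Slc25a31, the ADP/ATP carrier of germ cells, was at 0.056 to 0.434 FPKM in G799R and 0 to 0.128 FPKM in wild type, under the filter.

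Because library scaling cancels in the ratio of a pair of genes from the same library, the balance between related carriers was also compared. The mixture of cell types does not cancel in such a ratio, and its part in the ratios was not tested. Of 12 listed pairs, 11 had both genes measured in every library, and 5 against 5 libraries allow no exact two-sided permutation p below 0.0079. The ratio of Slc25a4 to Slc25a5 was 0.294 to 0.419 in G799R and 0.194 to 0.2502 in wild type, with no overlap. The log2 ratio differed by 0.73 (exact permutation p = 0.0079, adjusted p = 0.011 over the 11 ratios); Slc25a4 thus stood higher beside Slc25a5 in each G799R library.

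The calcium-regulated carriers that exchange ATP-Mg for phosphate, and so set the size of the adenine nucleotide pool in the matrix, went in different directions. Slc25a24 stood at 17.6, 14.4, 16.6, 18.3 and 18.05 FPKM in G799R libraries 1 to 5, against 15.3, 9.89, 11.1, 7.61 and 9.35 FPKM in wild-type libraries 1 to 5. Slc25a23 stood at 17.96, 17.5, 16.5, 14.99 and 15.7 FPKM in G799R libraries 1 to 5, against 21.2, 27.1, 24.9, 30.3 and 28.7 FPKM in wild-type libraries 1 to 5. Slc25a25 stood at 8.79, 11.6, 8.57, 7.35 and 10.6 FPKM in G799R libraries 1 to 5, against 14.1, 18.8, 15.9, 31.9 and 20.1 FPKM in wild-type libraries 1 to 5. Slc25a24 was high in all G799R libraries, with overlap only through wild-type library 1, whereas Slc25a23 and Slc25a25 were low in all of them with no overlap. Slc25a24 was 1.59-fold higher (log2 difference 0.65 ± 0.15 SE, limma adjusted p = 0.0027), the largest rise among the carriers tested. Slc25a23 was 1.599-fold lower (−0.64 ± 0.09, adjusted p = 0.00019) and Slc25a25 2.15-fold lower (−0.99 ± 0.19, adjusted p = 0.0011). The ratio of Slc25a24 to Slc25a23 was 0.825 to 1.22 in G799R and 0.251 to 0.718 in wild type, without overlap (exact permutation p = 0.0079, adjusted p = 0.011 over the 11 ratios). That of Slc25a25 to Slc25a23 was 0.489 to 0.673 in G799R and 0.641 to 1.05 in wild type, where the groups overlapped (exact permutation p = 0.056, adjusted p = 0.061 over the 11 ratios). Slc25a25 shares 379 exonic bases with Naif1 on the opposite strand. Slc25a41, another member of this class, was listed at 0 in all G799R libraries and at 0.131 FPKM in a single wild-type library.

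The aspartate/glutamate carriers Slc25a13 (citrin) and Slc25a12 (aralar) carry out the same exchange for the malate-aspartate shuttle, which moves reducing equivalents into the matrix. Citrin is known for liver and other epithelia and aralar for brain and muscle. Slc25a13 stood at 4.04, 3.93, 2.87, 2.65 and 2.99 FPKM in G799R libraries 1 to 5, against 13.5, 20.3, 16.9, 23.6 and 20.3 FPKM in wild-type libraries 1 to 5. Slc25a12 stood at 20.9, 21.1, 20.04, 16.965 and 20.9 FPKM in G799R libraries 1 to 5, against 23.03, 23.3, 24.1, 23.6 and 26.5 FPKM in wild-type libraries 1 to 5. Both fell without overlap, by very different amounts. Slc25a13, at chromosome 6, 6041218 to 6217173 (GRCm38), was 5.74-fold lower (log2 difference −2.20 ± 0.15 SE, limma adjusted p = 1.9e-06), the largest fall among the carriers tested on the log2 scale, and Slc25a12 was 1.21-fold lower (−0.26 ± 0.07, adjusted p = 0.0084). The ratio of Slc25a13 to Slc25a12 was 0.143 to 0.194 in G799R and 0.588 to 0.9999 in wild type (exact permutation p = 0.0079, adjusted p = 0.011 over the 11 ratios), a log2 difference of −2.24.

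The promoters of this pair are shown because the same exchange is served by 2 genes whose mRNA fell by very different amounts. Any link between these promoters and the mRNA levels was not tested. Each is the 250 bases before the RefSeq start in build GRCm38.p6, read on the gene's own strand, for Slc25a13 at chr6:6217174-6217423 and for Slc25a12 at chr2:71367756-71368005, both on the minus strand.
Slc25a13: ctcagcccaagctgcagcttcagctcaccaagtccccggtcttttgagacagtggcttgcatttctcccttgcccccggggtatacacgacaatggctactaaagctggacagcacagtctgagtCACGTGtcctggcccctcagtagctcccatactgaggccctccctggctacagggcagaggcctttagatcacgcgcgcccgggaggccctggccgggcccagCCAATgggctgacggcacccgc
Slc25a12: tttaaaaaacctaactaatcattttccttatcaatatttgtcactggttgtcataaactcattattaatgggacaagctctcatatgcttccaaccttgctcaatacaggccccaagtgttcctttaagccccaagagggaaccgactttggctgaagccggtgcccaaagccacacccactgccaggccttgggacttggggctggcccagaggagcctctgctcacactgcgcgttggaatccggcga
Capitals mark any match on either strand to 8 motifs, which were the GC box GGGCGG, the CCAAT box CCAAT, the E-box CACGTG, and motifs of the factors NRF1 (GCGCA, any base, GCGC), ETS (CCGGAAGT), ERR (TCAAGGTCA), HNF4 (CAAAGTCCA) and PPAR (AGGTCA, any base, AGGTCA). Slc25a13 held 1 E-box and 1 CCAAT box and Slc25a12 none of the 8. Promoters were found for 36 of the 47 members, and no matches to different motifs overlapped in them. The GC box was in 25 of 36 member promoters (69.4%), against 35.4% of all 27025 genes with a promoter and 62.9% of the 10273 of them tested here. The CCAAT box was in 18 of 36, against 37.5% of all and 40.1% of tested genes, and the E-box in 7 (19.4%), against 6.86% and 9.70%. The NRF1 motif was in 2 member promoters (5.56%), against 4.23% of all and 8.92% of tested genes, and the ETS motif in 1 (2.78%), against 3.23% and 6.51%. ERR, HNF4 and PPAR motifs were in 0 member promoters, against 0.422%, 0.451% and 0.0407% of all genes and 0.321%, 0.438% and 0.0389% of tested genes. Of the 20 members called lower that had a promoter, 14 held a GC box, 12 a CCAAT box and 4 an E-box. Of the other 11 tested members with a promoter, 9 held a GC box, 5 a CCAAT box and 2 an E-box.

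Of the other 9 tested carriers of amino acids and glutathione, 4 were called lower and 1 higher. Slc25a15 exchanges ornithine for citrulline. Slc25a15 stood at 4.86, 5.48, 5.41, 5.02 and 4.18 FPKM in G799R libraries 1 to 5, against 15.05, 23.7, 19.6, 27.05 and 22.8 FPKM in wild-type libraries 1 to 5. The gene, at chromosome 8, 22375551 to 22398597 (GRCm38), was 4.34-fold lower (log2 difference −1.90 ± 0.14 SE, limma adjusted p = 2.2e-06), with no overlap. Slc25a2, the other ornithine carrier, was at 0 to 0.051 FPKM in G799R and 0.038 to 0.273 FPKM in wild type and was not tested.

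Slc25a22 imports glutamate with a proton. Slc25a22 stood at 15.7, 11.95, 20.6, 15.3 and 9.22 FPKM in G799R libraries 1 to 5, against 9.30, 9.19, 10.05, 9.13 and 9.29 FPKM in wild-type libraries 1 to 5. It was 1.55-fold higher (0.54 ± 0.16 SE, limma adjusted p = 0.014). G799R library 5 lay within the wild-type range and library 3 was the highest. Without G799R libraries 3 and 4 the difference was 0.33 and not called (adjusted p = 0.072). Its relative Slc25a18 was at 0 to 0.155 FPKM in G799R and 0 to 0.140 FPKM in wild type, so their ratio was not compared.

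Slc25a39 serves the supply of glutathione to the matrix, as does its close relative Slc25a40. Slc25a39 stood at 54.4, 48.3, 44.97, 38.1 and 37.6 FPKM in G799R libraries 1 to 5, against 94.9, 150.2, 111, 169 and 138 FPKM in wild-type libraries 1 to 5. Slc25a40 stood at 9.47, 6.496, 6.75, 7.74 and 7.96 FPKM in G799R libraries 1 to 5, against 8.66, 7.39, 6.88, 6.75 and 7.82 FPKM in wild-type libraries 1 to 5. Slc25a39 fell in every G799R library without overlap, while the groups of Slc25a40 overlapped. Slc25a39 was 2.97-fold lower (log2 difference −1.53 ± 0.16 SE, limma adjusted p = 1.4e-05), and Slc25a40 differed by 0.02 ± 0.10 (adjusted p = 0.85). The ratio of Slc25a39 to Slc25a40 was 4.73 to 7.43 in G799R and 10.96 to 24.99 in wild type (exact permutation p = 0.0079, adjusted p = 0.011 over the 11 ratios).

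Slc25a48 serves the import of choline, and Slc25a45 is related to it in sequence. Slc25a48 stood at 0.386, 0.438, 0.590, 0.648 and 0.351 FPKM in G799R libraries 1 to 5, against 1.704, 3.47, 2.09, 2.702 and 2.89 FPKM in wild-type libraries 1 to 5. Slc25a45 stood at 9.82, 10.8, 8.06, 8.47 and 11.7 FPKM in G799R libraries 1 to 5, against 10.03, 10.3, 11.1, 13.01 and 12.8 FPKM in wild-type libraries 1 to 5. Slc25a48 was low in every G799R library with no overlap, and Slc25a45 overlapped. Slc25a48 was 5.33-fold lower (log2 difference −1.25 ± 0.14 SE, limma adjusted p = 2.8e-05), and Slc25a45 differed by −0.21 ± 0.11 (adjusted p = 0.12). Their ratio, Slc25a45 to Slc25a48, was 13.1 to 33.4 in G799R and 2.96 to 5.89 in wild type (exact permutation p = 0.0079, adjusted p = 0.011 over the 11 ratios). The G799R ratios rest on Slc25a48 levels of 0.351 to 0.648 FPKM, for which no counting error can be given. Slc25a44, a carrier of branched-chain amino acids, averaged 9.399 ± 0.638 FPKM in G799R and 10.9 ± 0.359 FPKM in wild type (SD, n = 5 each) and was called lower (limma adjusted p = 0.02), but not without G799R library 2 (adjusted p = 0.052) nor without G799R libraries 3 and 4 (adjusted p = 0.058). Slc25a38, which brings glycine to haem synthesis, averaged 11.1 ± 1.31 FPKM in G799R and 11.5 ± 1.15 FPKM in wild type, and Slc25a29, a carrier of basic amino acids, 3.77 ± 0.622 FPKM in G799R and 4.13 ± 1.26 FPKM in wild type (SD, n = 5 each), and neither was called.

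Carriers of di- and tricarboxylates fell in 4 of 5 cases. Slc25a10 exchanges malate or succinate for phosphate and serves gluconeogenesis, and Slc25a11 exchanges 2-oxoglutarate for malate in the malate-aspartate shuttle. Slc25a10 stood at 22.8, 15.5, 13.3, 11.9 and 11.4 FPKM in G799R libraries 1 to 5, against 62.5, 76.2, 52.1, 89.8 and 63.9 FPKM in wild-type libraries 1 to 5. Slc25a11 stood at 36.03, 31.7, 31.1, 31.3 and 34.3 FPKM in G799R libraries 1 to 5, against 48.1, 51.5, 50.7, 60.4 and 55.9 FPKM in wild-type libraries 1 to 5. Neither gene overlapped between groups, and G799R library 1 was the highest of its group for both. Slc25a10, at chromosome 11, 120491840 to 120499187 (GRCm38), was 4.59-fold lower (log2 difference −2.14 ± 0.19 SE, limma adjusted p = 5.1e-06) and Slc25a11 1.62-fold lower (−0.68 ± 0.07, adjusted p = 2.2e-05). Their ratio was 0.333 to 0.634 in G799R and 1.03 to 1.49 in wild type (exact permutation p = 0.0079, adjusted p = 0.011 over the 11 ratios), so Slc25a10 was the higher of the pair in every wild-type library and the lower in every G799R library. Slc25a11 shares 189 exonic bases with Rnf167 on the opposite strand.

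Slc25a21 carries 2-oxoadipate and 2-oxoglutarate, intermediates of lysine and tryptophan breakdown. Slc25a21 stood at 1.06, 1.103, 0.766, 0.675 and 0.728 FPKM in G799R libraries 1 to 5, against 3.69, 7.08, 4.32, 6.82 and 3.76 FPKM in wild-type libraries 1 to 5. It was 5.93-fold lower (log2 difference −1.68 ± 0.17 SE, limma adjusted p = 1.4e-05), at a level where the pseudocount shrinks the log2 difference. It shares 189 exonic bases with Pax9 on the opposite strand. Slc25a1, the citrate carrier that supplies fatty acid and sterol synthesis, averaged 22.3 ± 3.17 FPKM in G799R and 30.8 ± 3.096 FPKM in wild type (SD, n = 5 each) and was called lower with overlapping groups (limma adjusted p = 0.0026). Slc25a20, the carnitine/acylcarnitine carrier of fatty acid oxidation, averaged 14.6 ± 1.15 FPKM in G799R and 15.6 ± 1.11 FPKM in wild type (SD, n = 5 each) and was not called (log2 difference −0.09 ± 0.07 SE, limma adjusted p = 0.29). All 4 enzymes of the carnitine shuttle on either side of it fell, among them Cpt2, at 13.9 ± 1.15 FPKM in G799R and 26.2 ± 4.27 FPKM in wild type, and Cpt1b, at 1.39 ± 0.6403 FPKM in G799R and 4.73 ± 1.63 FPKM in wild type.

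**Figure D2:**
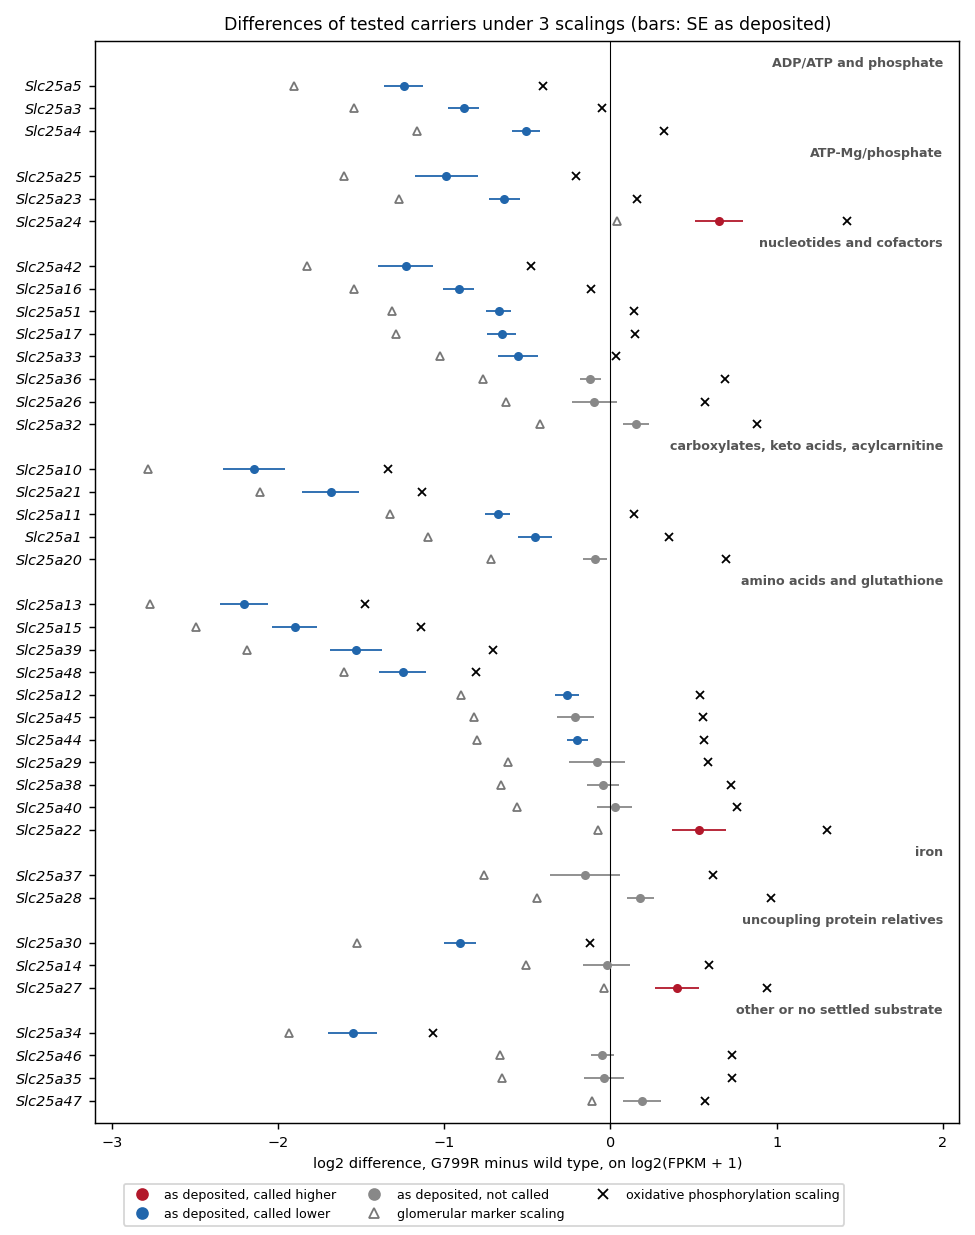
Log2 differences (G799R minus wild type) of 39 of the 40 tested carriers by substrate class, as deposited (filled points with SE, blue for lower, red for higher, grey for not called), under glomerular marker scaling (triangles) and under oxidative phosphorylation scaling (crosses). Within a class the points spread from strong falls, such as Slc25a10 at −2.14, to values near 0, such as Slc25a20 at −0.09, and the scalings move all points to one side together.

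Among carriers of nucleotides and cofactors 6 of 9 tested were called lower and none higher. Slc25a42 imports coenzyme A, and Slc25a16 is needed for the coenzyme A level of the matrix. Slc25a42 stood at 8.03, 5.35, 4.41, 5.08 and 5.93 FPKM in G799R libraries 1 to 5, against 12.4, 15.3, 11.2, 20.3 and 15.5 FPKM in wild-type libraries 1 to 5. Slc25a16 stood at 15.1, 13.9, 14.1, 14.1 and 15.2 FPKM in G799R libraries 1 to 5, against 23.7, 30.5, 26.3, 34.7 and 26.8 FPKM in wild-type libraries 1 to 5. Both fell in every G799R library without overlap, and Slc25a16 was tightly spread in G799R. Slc25a42 was 2.59-fold lower (log2 difference −1.23 ± 0.17 SE, limma adjusted p = 0.0001) and Slc25a16 1.96-fold lower (−0.91 ± 0.09, adjusted p = 1.4e-05). Their ratio was 0.314 to 0.531 in G799R and 0.427 to 0.583 in wild type with overlap (exact permutation p = 0.032, adjusted p = 0.039 over the 11 ratios), and the call was lost in most repeats with 1 library left out, where fewer libraries also raise the smallest p.

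Slc25a33 and Slc25a36 carry pyrimidine nucleotides for mitochondrial DNA and RNA. Slc25a33 stood at 2.198, 2.09, 1.51, 1.34 and 2.18 FPKM in G799R libraries 1 to 5, against 3.14, 3.47, 3.11, 3.704 and 2.56 FPKM in wild-type libraries 1 to 5. Slc25a36 stood at 30.2, 26.2, 26.9, 28.8 and 30.5 FPKM in G799R libraries 1 to 5, against 31.98, 31.8, 32.3, 30.98 and 28.5 FPKM in wild-type libraries 1 to 5. Slc25a33 was lower without overlap and Slc25a36 overlapped. Slc25a33 was 1.72-fold lower (log2 difference −0.56 ± 0.12 SE, limma adjusted p = 0.0023), Slc25a36 was not called (−0.12 ± 0.06, adjusted p = 0.11), and the ratio of Slc25a33 to Slc25a36 was 0.0464 to 0.0796 in G799R and 0.0899 to 0.1195 in wild type (exact permutation p = 0.0079, adjusted p = 0.011 over the 11 ratios).

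Of the other cofactor carriers, Slc25a51, which imports NAD, averaged 22.7 ± 1.88 FPKM in G799R and 36.8 ± 3.21 FPKM in wild type (SD, n = 5 each). The peroxisomal carrier Slc25a17 averaged 18.3 ± 0.554 FPKM in G799R and 29.6 ± 3.998 FPKM in wild type (SD, n = 5 each). Both were called lower without overlap, with log2 differences of −0.67 and −0.65 (limma adjusted p = 3.2e-05 and 0.0001). Slc25a26, the S-adenosylmethionine carrier, averaged 3.71 ± 0.821 FPKM in G799R and 4.01 ± 0.681 FPKM in wild type (SD, n = 5 each) and was not called. Slc25a32, which serves folate and flavin, averaged 7.103 ± 0.431 FPKM in G799R and 6.28 ± 0.566 FPKM in wild type (SD, n = 5 each) and was not called either. Slc25a26 shares 144 exonic bases with Lrig1 on the opposite strand.

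The iron importers, called mitoferrins, were not called. Slc25a28 stood at 14.5, 14.1, 15.1, 16.4 and 17.9 FPKM in G799R libraries 1 to 5, against 13.9, 12.9, 13.01, 12.7 and 15.8 FPKM in wild-type libraries 1 to 5. Slc25a37 stood at 11.1, 10.6, 10.8, 8.92 and 13.1 FPKM in G799R libraries 1 to 5, against 18.5, 9.33, 9.65, 8.51 and 18.2 FPKM in wild-type libraries 1 to 5. Wild-type libraries 1 and 5 were high for Slc25a37, the form known for red cell precursors, and the other wild-type libraries lay within or just below the G799R range. Slc25a28 differed by 0.18 ± 0.08 SE (limma adjusted p = 0.08) and Slc25a37 by −0.15 ± 0.21 (adjusted p = 0.55). The ratio of Slc25a37 to Slc25a28 was 0.542 to 0.768 in G799R and 0.6703 to 1.34 in wild type (exact permutation p = 0.25, adjusted p = 0.25 over the 11 ratios). Without wild-type library 5 Slc25a28 was called higher (0.23, adjusted p = 0.033). Of the 8 enzymes of haem synthesis, which uses this iron, 5 fell and 0 rose. Cpox averaged 6.78 ± 0.724 FPKM in G799R and 18.1 ± 2.76 FPKM in wild type, and Alas1, which starts the pathway, averaged 22.1 ± 2.79 FPKM in G799R and 57.4 ± 17.99 FPKM in wild type (SD, n = 5 each).

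Of the relatives of the uncoupling proteins, 1 was called lower, 1 higher and 1 was not called. Slc25a30 is also called kidney mitochondrial carrier protein, while Slc25a14 and Slc25a27 are best known from brain. Slc25a30 stood at 11.5, 10.9, 10.99, 7.88 and 10.3 FPKM in G799R libraries 1 to 5, against 19.5, 20.98, 21.1, 18.1 and 20.9 FPKM in wild-type libraries 1 to 5. Slc25a14 stood at 2.99, 3.54, 2.65, 2.31 and 2.28 FPKM in G799R libraries 1 to 5, against 2.89, 1.76, 2.98, 3.08 and 3.42 FPKM in wild-type libraries 1 to 5. Slc25a27 stood at 1.97, 2.72, 2.29, 2.24 and 3.42 FPKM in G799R libraries 1 to 5, against 2.29, 1.56, 1.78, 1.35 and 1.36 FPKM in wild-type libraries 1 to 5. Slc25a30 was low in all G799R libraries without overlap, the groups of Slc25a14 overlapped, and those of Slc25a27 overlapped only through wild-type library 1. Slc25a30 was 1.95-fold lower (log2 difference −0.91 ± 0.10 SE, limma adjusted p = 1.8e-05), Slc25a14 was not called (−0.02 ± 0.14, adjusted p = 0.91) and Slc25a27 was 1.51-fold higher (0.40 ± 0.13, adjusted p = 0.023). The ratio of Slc25a30 to Slc25a14 was 3.09 to 4.53 in G799R and 5.88 to 11.9 in wild type (exact permutation p = 0.0079, adjusted p = 0.011 over the 11 ratios). Slc25a27 was no longer called without G799R library 5 or either of wild-type libraries 4 and 5, with log2 differences of 0.32 to 0.48 and adjusted p of 0.0079 to 0.056 over all 10 repeats with 1 library left out.

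Of the 4 tested members with other roles or no settled substrate, only Slc25a34 was called, and it was lower. Slc25a34 stood at 0.954, 0.501, 0.399, 0.614 and 0.397 FPKM in G799R libraries 1 to 5, against 2.96, 3.94, 2.75, 4.97 and 3.58 FPKM in wild-type libraries 1 to 5. It was 6.35-fold lower (log2 difference −1.55 ± 0.15 SE, limma adjusted p = 8.4e-06) with no overlap, the largest fold of mean FPKM among the tested carriers. Slc25a35 averaged 11.3 ± 0.687 FPKM in G799R and 11.8 ± 2.28 FPKM in wild type (SD, n = 5 each) and was not called, and it shares 1151 exonic bases with Rangrf on the opposite strand, so its level is uncertain. Slc25a46, a protein of the outer membrane that acts in mitochondrial shape, averaged 13.1 ± 0.979 FPKM in G799R and 13.5 ± 0.641 FPKM in wild type and Slc25a47, best known from liver, 0.988 ± 0.204 FPKM in G799R and 0.743 ± 0.192 FPKM in wild type (SD, n = 5 each), and neither was called. Slc25a47 lies 162 bases from Slc25a29 on chromosome 12, on the opposite strand. Slc25a43 stayed under the filter, at 0.0610 to 0.393 FPKM in G799R and 0.277 to 1.08 FPKM in wild type. Slc25a53 did so too, at 0.132 to 0.449 FPKM in G799R and 0.0650 to 0.196 FPKM in wild type, and Slc25a54 was listed at 0 in all 10 libraries.

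**Figure D3:**
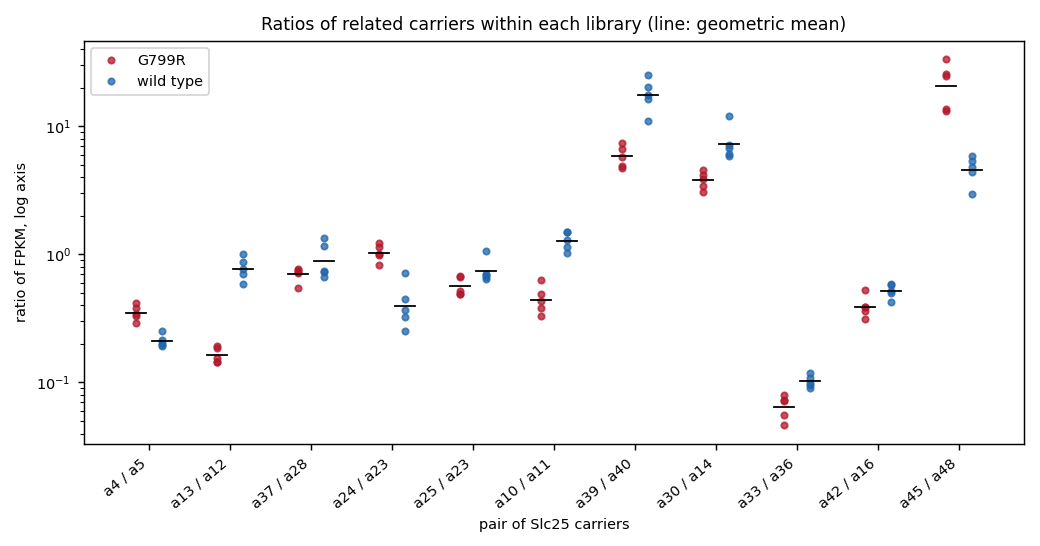
Ratio of FPKM (log axis) for the 11 pairs of related carriers in each library, with 5 G799R libraries (red, left) and 5 wild-type libraries (blue, right) per pair and a line at the geometric mean. The groups do not overlap for 8 pairs, and the largest shifts are in Slc25a13 to Slc25a12 (log2 difference −2.24) and Slc25a45 to Slc25a48 (2.18). The size of the latter is uncertain, since Slc25a48 was at only 0.351 to 0.648 FPKM in G799R.

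Over all pairs, 9 of 11 ratios passed the threshold and 8 did not overlap between groups, where the part of cell mixture was not tested. Ratios of other gene pairs were not computed, so these counts have no background share. As single genes, 59.8% of all tested genes were called and 41.8% did not overlap between groups. The ratio to the partner named with it was lower in G799R for Slc25a13, Slc25a10, Slc25a39, Slc25a30 and Slc25a33, and higher for Slc25a4, Slc25a24 and Slc25a45.

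Many genes that work with the carriers were lower as well, beside 19.3% of all tested genes called lower and 40.5% higher. All 4 enzymes of the malate-aspartate shuttle fell, among them Mdh1, at 109 ± 10.5 FPKM in G799R and 331 ± 52.04 FPKM in wild type, and Got2, at 40.2 ± 3.94 FPKM in G799R and 84.6 ± 14.01 FPKM in wild type (SD, n = 5 each), and the median difference of the 4 was −0.95. Both subunits of the mitochondrial pyruvate carrier, which is not an SLC25 protein, fell, Mpc1 at 72.5 ± 3.64 FPKM in G799R and 186 ± 32.9 FPKM in wild type and Mpc2 at 24.8 ± 0.982 FPKM in G799R and 58.5 ± 8.94 FPKM in wild type (SD, n = 5 each). Of the outer membrane channels that pass these solutes on, Vdac1 was lower (123 ± 9.002 FPKM in G799R and 189.9 ± 18.5 FPKM in wild type), Vdac2 higher (150.5 ± 11.5 FPKM in G799R and 129 ± 6.84 FPKM in wild type, with the sign turned to −0.45 under the glomerular marker scaling given below) and Vdac3 not called. Of 9 tested genes that bring carriers into the inner membrane 5 fell and 0 rose, with a median of −0.31. Tomm70a, a receptor for carrier precursors, averaged 13.7 ± 0.753 FPKM in G799R and 17.2 ± 1.03 FPKM in wild type, and Timm8a1, a chaperone of the space between the membranes, 5.23 ± 0.607 FPKM in G799R and 10.6 ± 1.29 FPKM in wild type (SD, n = 5 each). Of 5 tested enzymes of ornithine and glutamate metabolism 3 fell and 0 rose, with Glud1 at 79.1 ± 8.103 FPKM in G799R and 127 ± 15.4 FPKM in wild type and Oat at 41.2 ± 3.71 FPKM in G799R and 61.8 ± 10.02 FPKM in wild type (SD, n = 5 each). In the glycerol phosphate shuttle Gpd1 fell (16.9 ± 3.04 FPKM in G799R and 57.3 ± 16.2 FPKM in wild type) and Gpd2 was not called. Each of the 45 listed genes of the respiratory chain and ATP synthase was called lower, at −1.31 to −0.27 with −0.85 as the median. The list does not hold all subunits and leaves out the mitochondrially encoded ones. Direction depended on scaling. Under the oxidative phosphorylation scaling given below, 81.6% of all tested genes were called higher and 8.65% lower. The import genes there were 7 higher and 0 lower of 9, and the ornithine and glutamate enzymes 3 and 0 of 5. The malate-aspartate enzymes were 0 and 1 of 4, the haem enzymes 5 and 2 of 8 and the carnitine enzymes 1 and 1 of 4. Under glomerular marker scaling these lists held 0 genes called higher.

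**Figure D4:**
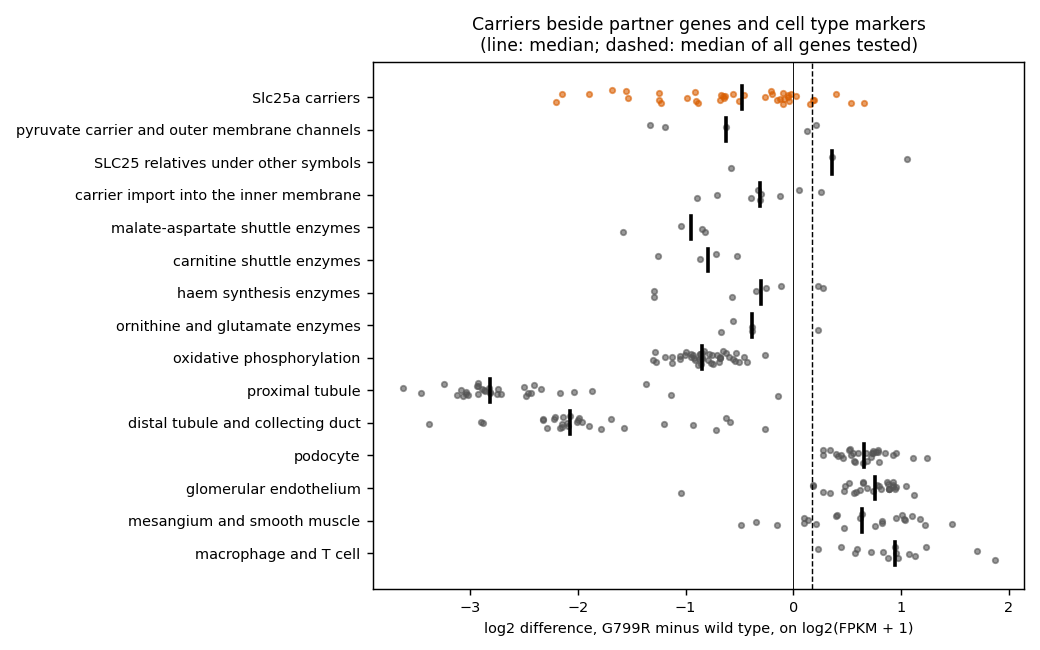
Log2 differences (G799R minus wild type) of the tested carriers (orange) beside partner genes and cell type markers (grey), each point a gene and each bar the median, with a dashed line at the median of all tested genes (0.17). The carriers spread from −2.20 to 0.65, wider than the oxidative phosphorylation genes (−1.31 to −0.27). The carrier median of −0.48 lies above the tubule lists (medians −2.82 and −2.07). It lies below the podocyte, endothelial, and mesangial and smooth muscle lists (medians 0.64 to 0.76).

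The direction of many carriers depended on what was held equal between libraries. Glomerular marker scaling set the mean level of podocyte, endothelial, and mesangial and smooth muscle markers equal in every library. This scaling moved the median of all genes to −0.40. Under it 36 of 40 carriers were called lower and 0 higher, beside 63.0% and 4.34% of all tested genes. Slc25a24, Slc25a22, Slc25a27 and Slc25a47 were the 4 not called there, at 0.04, −0.08, −0.04 and −0.11, so none of the 3 rises held under that scaling. With median-of-ratios scaling, where the median of all genes was 0.02, 27 carriers were called lower and 1 higher, beside 25.5% and 23.3% of all tested genes. The single rise was that of Slc25a24 (0.49). Quantile normalisation gave 24 lower and 3 higher (20.8% and 35.5% of all tested genes). Without G799R libraries 3 and 4 there were 22 and 2 (17.2% and 37.1%), and with library numbers as a block also 22 and 2 (18.7% and 37.6%). All 23 carriers called lower as deposited were also called lower under glomerular marker scaling, median-of-ratios scaling and quantile normalisation. These 3 scalings moved the median of all genes down, from 0.17 as deposited to −0.40, 0.02 and 0.13. A fall could therefore hardly be lost under them, and the shared calls are no independent check.

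Set against oxidative phosphorylation genes, by scaling their mean level to be equal in every library, the carriers fell on both sides. This scaling raised the median of all genes to 0.89, with 81.6% called higher and 8.65% lower, since the scaled genes had themselves fallen. There 9 carriers were still called lower, which were Slc25a13 (−1.48), Slc25a10 (−1.34), Slc25a15 (−1.14), Slc25a21 (−1.13), Slc25a34 (−1.07), Slc25a48 (−0.81), Slc25a39 (−0.70), Slc25a42 (−0.48) and Slc25a5 (−0.41). These 9 were lower under all 5 scalings tried. A further 10 carriers were not called, among them Slc25a3 (−0.05) and Slc25a16 (−0.11), whose fall was close to the mean of the genes scaled on. The other 21 were called higher, led by Slc25a24 (1.43), Slc25a22 (1.304) and Slc25a28 (0.96), and included Slc25a4 (0.32), Slc25a12 (0.54) and Slc25a20 (0.69). The proximal tubule markers had a median of −2.03 and the podocyte markers one of 1.49 under the same scaling.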

How the data were processed

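The authors deposited 1 table of FPKM values with a column for each of the 10 libraries, and 0 columns belonged to other samples. Per the labels' protocols, TRIzol was used to extract RNA, and libraries of mRNA were made with a NEBNext Ultra kit. The submitters' processing notes name RSEM, StringTie 1.3.1, HISAT2, Bowtie2 2.2.8 and fastp 0.18.0 without role or order. Genome build, annotation and strand setting are not given in these sources. Low values gave relative depths of 0.861 to 1.03 in G799R and 0.994 to 1.19 in wild type, against wild-type library 1. FPKM is a relative unit, so more RNA of some genes lowers the values of others.

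Identifiers were matched to symbols (21963 of 22053). Gene positions and exon overlaps came from GENCODE M21 (GRCm38) and promoters from RefSeq. The log2(FPKM + 1) values were tested with limma-trend (limma 3.58.1, R 4.3.3), a two-sided moderated test, and checked on simulated data. No test for counts was run, because the unit is FPKM. The members and lists were chosen with earlier results of these data known. Values in every library are given for the 4 carriers with the highest mean, the 8 largest falls and 8 largest rises called with a mean of at least 1 FPKM (only 3 rises were called), and both genes of each compared pair, and from partner lists the 2 genes with the smallest p are named, with further genes of short lists chosen after their values were seen. The values of 1 carrier, counted in the totals, are not reported here. Alternatives were pseudocounts of 0.1 and 0.5, no filter, a filter of 2 FPKM, the scalings named in the text, the tubule score as a covariate, a replicate block and leaving out libraries.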

Additional observations from a re-analysis of the deposited data

Results flagged for a closer look

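Among 54 groups of 5 libraries, from 27 carriers with values given in full, 2 held a library whose gap to its nearest neighbour was large for the range of the group by Dixon's test. Chance flags about 1 in 20 groups. Slc25a12 had 16.965 FPKM in G799R library 4, below the 20.04 to 21.05 FPKM of the other G799R libraries. Slc25a22 had 10.05 FPKM in wild-type library 3, above the 9.132 to 9.300 FPKM of the other wild-type libraries.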

How the results depend on the processing

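The counts of 23 carriers lower and 3 higher stayed within 1.5 times, at 22 to 27 and 2 to 3, with either pseudocount, either filter, quantile normalisation, the replicate block and without G799R libraries 3 and 4, and for the lower count with median-of-ratios scaling, where 1 was higher. They moved to 36 and 0 with glomerular marker scaling, 9 and 21 with oxidative phosphorylation scaling, and 0 and 0 with the tubule score as a covariate, a score of 3.62 to 4.37 in G799R and 5.91 to 6.60 in wild-type libraries. Leaving out 1 library gave 22 to 23 lower and 2 to 3 higher. The replicate block gave 22 and 2, losing Slc25a44 (adjusted p = 0.056) and Slc25a27 (adjusted p = 0.061). Same-numbered libraries did not deviate together (correlations −0.0846 to 0.0484), which gave no sign of pairing by number but cannot exclude a weak one. Paralog ratios past the threshold numbered 8 to 9 without 1 library, 8 as ratios of FPKM + 1 and 0 with the block, a sign-flip test that allows no p below 0.0625. Depth is unknown, so no counting error can be given for carriers of low level.

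The sign turned for these carriers, and the cause was not tested. With glomerular marker scaling, the log2 differences were Slc25a22 −0.076, Slc25a40 −0.56, Slc25a28 −0.44, Slc25a32 −0.42, Slc25a47 −0.11 and Slc25a27 −0.038. With oxidative phosphorylation scaling, the log2 differences were Slc25a4 0.32, Slc25a23 0.16, Slc25a12 0.54, Slc25a29 0.59, Slc25a38 0.73, Slc25a44 0.57, Slc25a45 0.56, Slc25a1 0.35, Slc25a11 0.14, Slc25a20 0.69, Slc25a37 0.62, Slc25a17 0.15, Slc25a26 0.57, Slc25a33 0.031, Slc25a36 0.69, Slc25a51 0.14, Slc25a35 0.73, Slc25a46 0.73 and Slc25a14 0.59. With the tubule score as a covariate, where none was called, the log2 differences were Slc25a23 0.32, Slc25a24 −0.69, Slc25a25 0.38, Slc25a12 0.15, Slc25a29 0.32, Slc25a39 0.26, Slc25a40 −0.32, Slc25a45 0.086, Slc25a1 0.14, Slc25a20 0.40, Slc25a28 −0.34, Slc25a26 0.39, Slc25a35 0.42, Slc25a14 0.70 and Slc25a27 −0.63. Slc25a40 was at −0.13 with median-of-ratios scaling and −0.0050 with quantile normalisation. None of the carriers that turned without 1 library was called, and their ranges were Slc25a14 −0.13 to 0.036, Slc25a29 −0.20 to 0.022, Slc25a35 −0.15 to 0.018, Slc25a38 −0.10 to 0.0057 and Slc25a40 −0.045 to 0.075. Without G799R libraries 3 and 4 Slc25a14 was at 0.046.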

Other observations

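Relatives of the family that carry other symbols went in both directions. Ucp2, an uncoupling protein best known from immune cells, averaged 159 ± 31.01 FPKM in G799R and 77.1 ± 23.1 FPKM in wild type (SD, n = 5 each; log2 difference 1.06, limma adjusted p = 0.0007), and was called higher. Mtch1, a carrier-like protein of the outer membrane, averaged 135 ± 6.72 FPKM in G799R and 105 ± 7.59 FPKM in wild type and was called higher. Its relative Mtch2 averaged 33.2 ± 1.99 FPKM in G799R and 50.4 ± 7.62 FPKM in wild type (SD, n = 5 each) and was called lower. With glomerular marker scaling the median of these 3 turned to −0.30, with 1 called higher and 2 lower. Markers of macrophages and T cells summed to 234 to 476 FPKM in G799R and 85.6 to 292 FPKM in wild-type libraries. Of these markers 9 of 15 tested were called higher, beside 40.5% of all tested genes. With glomerular marker scaling 4 of the 15 were called higher, beside 4.34% of all tested genes. The part of these markers in the level of Ucp2 was not tested. Ucp1 and Ucp3 were under the filter.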
